A study of Mus musculus with 20 samples.

Results

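Aminoacyl-tRNA synthetases attach each amino acid to its transfer RNA, and nuclear genes encode one set that serves the cytosol and another that serves mitochondria. The transcripts of 36 such genes were followed in bulk RNA sequencing (RNAseq) of mouse pancreatic islets, chosen by symbol from a table of 28632 genes. Of these, 20 encode cytosolic enzymes and 16 encode mitochondrial enzymes, whose symbols end in ars2. All 36 were found in the table and were counted in every one of the 20 libraries, and every one had a mean normalized count of at least 100.

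The islets came from 12-week-old mice of both sexes. The 6 Ctrl libraries (3 female, 3 male) carry the genotype label wild type, and by the study's methods the control animals bore either the Cre driver alone or floxed alleles alone. The 4 β-Mfn1KO libraries (3 female, 1 male; Mfn1-/-), the 5 β-Mfn2KO libraries (2 female, 3 male; Mfn2-/-) and the 5 β-Mfn1/2DKO libraries (2 female, 3 male; Mfn1-/-;Mfn2-/-) lack Mitofusin 1, Mitofusin 2 or both, the outer membrane GTPases that fuse mitochondria. Deletion was driven by Ins1-Cre, which acts in β-cells only, while whole islets also hold other endocrine, endothelial and stray exocrine cells. Islets were cultured for 24 hours before RNA was taken. Fewer cells of a type and less RNA per cell cannot be told apart in such bulk samples.

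Synthetases fall into 2 unrelated structural classes, class I and class II. In the cytosol several of them join the scaffold proteins Aimp1, Aimp2 and Eef1e1 in a multisynthetase complex, whereas Gars and Kars each make both the cytosolic and the mitochondrial enzyme from one gene. Mitochondrial enzymes charge the transfer RNAs that read the few messages of mitochondrial DNA, and no mitochondrial glutaminyl enzyme exists, since Ears2 charges that transfer RNA with glutamate and the GatCAB amidotransferase converts it. Many cytosolic synthetase genes are known targets of ATF4, the transcription factor induced when amino acids are short or mitochondria are stressed, which binds composite C/EBP-ATF response elements. β-cells depend on both sets, since they synthesise large amounts of proinsulin and couple its release to mitochondrial respiration.

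Letters of that response element were found in promoters of cytosolic enzymes. The search used TGATGNAA on both strands of RefSeq promoter windows (GRCm38.p6, 250 bases before to 50 bases after each start), and 27 of the 36 genes had a window. It matched 5 of 13 cytosolic genes (Aars, Gars, Iars, Tars and Yars) and 0 of 14 mitochondrial genes, against 4.51% of 27025 genes overall. Among 14 genes of amino acid and ATF4 responses with a window, it matched 4 (Asns, Chac1, Nupr1 and Trib3). The stretches below are 30 bases each, 5′ to 3′ on the strand of the gene, with the match in capitals. In Yars the match reads forward and in the others it is the reverse complement. They are shown because these 5 synthetases share these letters with the stress genes Trib3 and Nupr1, whose transcripts are described further on.
Aars (chr8:111033840-111033869, plus strand): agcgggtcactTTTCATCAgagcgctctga
Gars (chr6:55037960-55037989, plus strand): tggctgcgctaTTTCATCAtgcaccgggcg
Iars (chr13:49682126-49682155, plus strand): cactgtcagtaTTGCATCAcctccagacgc
Tars (chr15:11399655-11399684, minus strand): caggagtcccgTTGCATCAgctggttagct
Yars (chr4:129189895-129189924, plus strand): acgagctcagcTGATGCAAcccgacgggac
Trib3 (chr2:152344028-152344057, minus strand): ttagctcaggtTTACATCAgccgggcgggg
Nupr1 (chr7:126625562-126625591, minus strand): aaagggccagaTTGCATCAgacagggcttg
A match of letters is a description of sequence and not a binding site. Other sets of letters were searched in the same way, again on both strands. CCGGAAGT, an ETS-type site, matched 2 of 13 cytosolic genes (Farsa and Mars1) and 1 of 14 mitochondrial genes (Rars2), against 4.31% of genes. An NRF1-type site matched 3 of 13 cytosolic genes (Farsb, Kars and Tars) and 2 of 14 mitochondrial genes (Iars2 and Mars2), against 7.0% of genes.

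Cytosolic synthetase transcripts were mostly more abundant than mitochondrial ones, with Lars2 among the highest of all and Rars2 above the cytosolic Qars and Farsa. Levels between genes were compared as CPM, the share of a library's counts scaled to a fixed total, divided by exon length (CPM per kb). Exon length was the merged length of all annotated exons of a gene, so the order also depends on the annotation. It was 5142 bases for Sars and 3119 for Gars, whose mean normalized counts in Ctrl were 17484 and 13202. In Ctrl islets the median level was 22.0 CPM per kb over the 20 cytosolic genes (range 9.70 to 102) and 3.82 CPM per kb over the 16 mitochondrial genes. Gars, the glycyl enzyme that serves both compartments, stood first at 102 ± 10.8 CPM per kb (SD, n = 6), followed by Sars at 82.1 ± 7.12 and Nars at 68.4 ± 13.3. Lars2, the mitochondrial leucyl enzyme, came next at 61.5 ± 11.9 CPM per kb, while the next mitochondrial gene, Rars2, was at 12.1 ± 0.250. Without Lars2, the 15 mitochondrial genes ranged from 0.666 CPM per kb for Mars2 to 12.1 for Rars2. Of the 35 pairs of neighbours in this order, 28 had overlapping ranges of the 6 Ctrl libraries. The genes of a pair were not compared within each library, so overlap does not show that their levels were alike. The 7 steps without overlap all lay in the lower part of the order, from Cars downward.

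**Figure D1:**
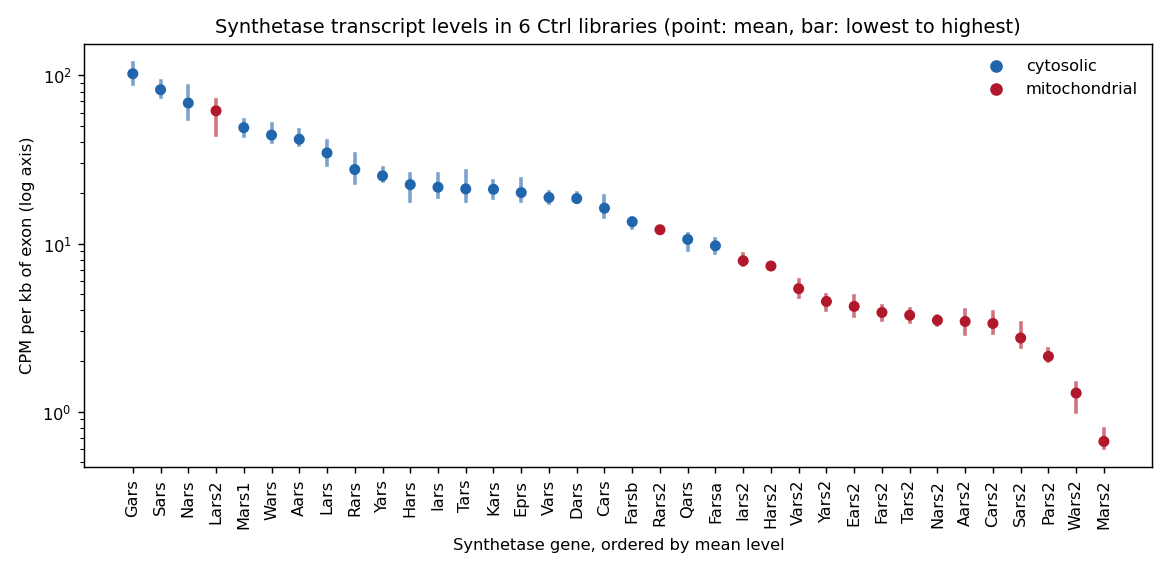
Level of each synthetase transcript in the 6 Ctrl libraries, in CPM per kb of exon on a log axis, ordered by mean, with points for means, bars from the lowest to the highest library, blue for cytosolic and red for mitochondrial genes. The cytosolic genes fill the upper part, Lars2 is the only mitochondrial gene among the first 19, and Mars2 is last at 0.666 CPM per kb.

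In islets that lacked both Mitofusins most synthetase transcripts were close to their Ctrl levels, and Lars2 was lower. In β-Mfn1/2DKO against Ctrl islets 1 of 20 cytosolic genes passed (Mars1, lower) and 5 of 16 mitochondrial genes passed (Tars2, Yars2 and Vars2 higher, Lars2 and Iars2 lower), where passing means an adjusted p below 0.05 by the quasi-likelihood test of edgeR run on the whole table. Over all 28632 genes the same rule called 16.5% (9.59% higher and 6.86% lower), and over the 12274 genes with a mean normalized count of at least 100 it called 33.6%, and the 6 of 36 synthetases (16.7%) lay near the first share and below the second. Lars2 alone changed more than 1.5-fold, as did 5.21% of all genes. The median log2 fold change was -0.03 over the cytosolic and 0.01 over the mitochondrial genes, beside 0.03 over the 12274 genes.

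**Figure D2:**
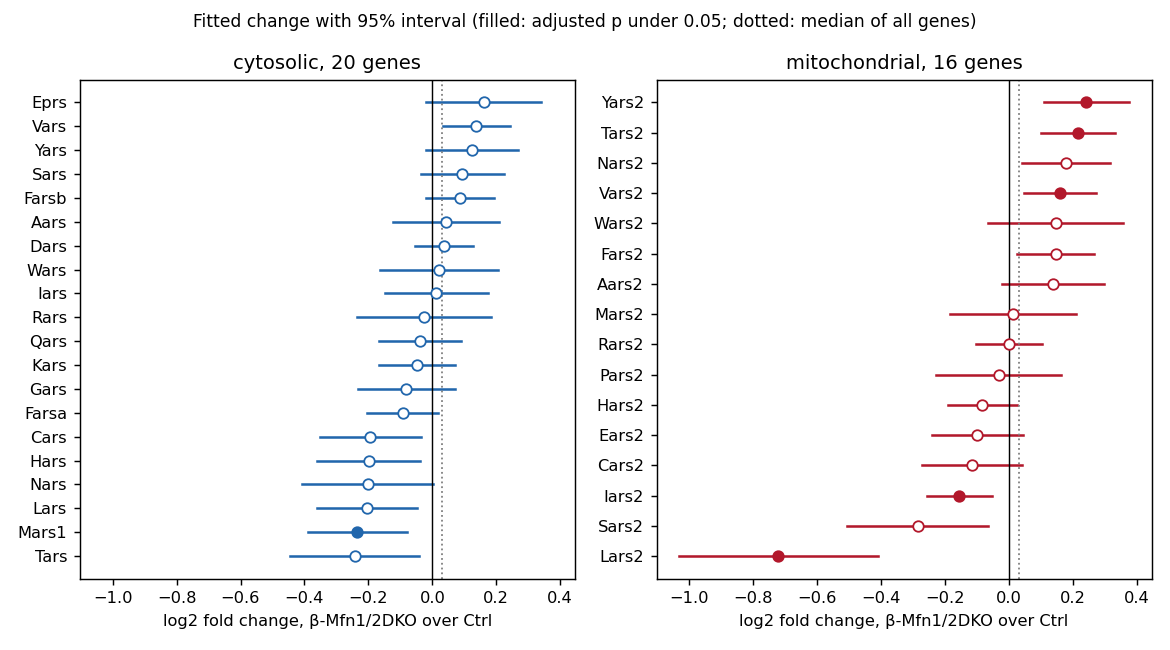
Fitted log2 fold change of each synthetase in β-Mfn1/2DKO (n = 5) over Ctrl (n = 6) islets with its 95% interval, cytosolic genes on the left and mitochondrial genes on the right. Filled points passed an adjusted p of 0.05, and the dotted line marks the median of 12274 genes at 0.03. Lars2 lies apart at -0.72, and every other estimate lies between -0.29 and 0.24.

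Values below are normalized counts, that is, counts scaled by edgeR's TMM factors to a common library size, and fold changes are on the log2 scale with their standard error (SE). Lars2 (chr9:123366927-123462666) read 15133, 15027, 18033, 16392 and 21060 in β-Mfn1/2DKO replicates 1 to 5, and from 20346 through a median of 30483 to 32938 in Ctrl. The groups overlapped through β-Mfn1/2DKO replicate 5 and Ctrl replicate 3 only. Its log2 fold change was -0.72 ± 0.15, a level 0.61 times that of Ctrl (adjusted p = 0.0015).

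Threonine, tyrosine and valine enzymes of mitochondria moved the other way. Tars2 (chr3:95739976-95760206) read 1266, 1319, 1200, 1240 and 1220 in β-Mfn1/2DKO, all above the Ctrl range of 975 to 1169 with a median of 1075. It rose by 0.22 ± 0.06 (adjusted p = 0.00945). Tars2 and Iars2 were the only 2 synthetases whose β-Mfn1/2DKO and Ctrl libraries did not overlap, against 20.6% of the 12274 genes. Yars2 (chr16:16302965-16309640) read 623, 706, 685, 718 and 759 against 523 to 643 in Ctrl with a median of 604, so that replicate 1 alone fell inside the Ctrl range. It rose by 0.24 ± 0.06 (adjusted p = 0.011). Vars2 (chr17:35655634-35667592) read 1417, 1399, 1389, 1292 and 1308 against 1093 to 1380 with a median of 1203, and rose by 0.16 ± 0.05 (adjusted p = 0.0481). Ctrl replicate 3, the highest control, reached into its β-Mfn1/2DKO values. Vars2 no longer passed without any one of Ctrl replicates 1, 2, 4, 5 or 6, β-Mfn1KO replicates 1 or 2, β-Mfn2KO replicates 1 or 4, or β-Mfn1/2DKO replicate 1, whereas Lars2, Tars2 and Yars2 passed with each of the 20 libraries left out singly.

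Iars2 (chr1:185284726-185329396), the mitochondrial isoleucyl enzyme, read 2591, 2648, 2558, 2595 and 2647 in β-Mfn1/2DKO and 2739 to 3182 with a median of 2850 in Ctrl. All 5 libraries lay below every control, and it fell by 0.16 on the log2 scale (SE 0.05, adjusted p = 0.0322). Iars2 no longer passed without any one of Ctrl replicates 2, 3 or 4, β-Mfn2KO replicates 3 or 5, or β-Mfn1/2DKO replicates 1, 2, 3 or 4, and its estimate over single libraries left out was -0.17 to -0.12. Its exons share 2034 bases with Rab3gap2 on the opposite strand, a gene with 204% of its count whose own log2 fold change was -0.19 (adjusted p = 0.0197), and the strand setting of the counting was not given in the sources used here. The count of Iars2 is uncertain to that extent. Sars2 read 352, 358, 294, 304 and 235 against 333 to 465 with a median of 369 in Ctrl, at -0.29 ± 0.11 (adjusted p = 0.0724), with 3 of 5 libraries below every control. Nars2 read 1218, 1154, 1197, 1175 and 960 against 945 to 1063 with a median of 1016, at 0.18 ± 0.07 (adjusted p = 0.0754), with replicate 5 inside the Ctrl range and the other 4 above it.

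Among the cytosolic enzymes, Mars1, the methionyl enzyme that also charges the initiator transfer RNA, read 5925, 6299, 6003, 5851 and 5348 in β-Mfn1/2DKO. Ctrl libraries ranged from 6155 through a median of 6938 to 7638, and β-Mfn1/2DKO replicate 2 overlapped them. Mars1 (chr10:127296221-127311786) fell by 0.24 on the log2 scale (SE 0.07, adjusted p = 0.0321). It shares 68 exon bases with Ddit3 on the opposite strand, a gene with 117% of its count that rose by 1.95. With Ctrl replicates 1, 2 or 5 or β-Mfn1/2DKO replicates 1, 3, 4 or 5 left out singly, Mars1 no longer passed. Its estimate over all single libraries left out was -0.27 to -0.20.

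Lars, Hars, Cars, Tars and Nars, none past the threshold, had estimates near that of Mars1. Lars, the leucyl enzyme, read 6703, 7132, 6790, 6597 and 6153 in β-Mfn1/2DKO against 6506 to 9100 with a median of 7436 in Ctrl, at -0.20 ± 0.08 (adjusted p = 0.0703). Hars, the histidyl enzyme, read 1980, 2109, 1884, 2071 and 1847 against 1824 to 2634 with a median of 2278, at -0.20 ± 0.08 (adjusted p = 0.0878). Cars, the cysteinyl enzyme, read 3748, 3979, 3614, 3972 and 4025 against 3898 to 5228 with a median of 4283, at -0.19 ± 0.08 (adjusted p = 0.0909). In each of them β-Mfn1/2DKO libraries sat at the lower end of a broad Ctrl range. Tars, the threonyl enzyme, read 4312, 4588, 4176, 4505 and 4240 against 4368 to 6629 with a median of 4620 in Ctrl, at -0.24 ± 0.10 (adjusted p = 0.0967). Nars, the asparaginyl enzyme, read 10383, 11292, 10396, 10958 and 10593 against 9981 to 15654 with a median of 11496, at -0.20 ± 0.10 (adjusted p = 0.188). For both, every β-Mfn1/2DKO library lay below the Ctrl median but inside or just under the Ctrl range. Vars, the valyl enzyme, had the opposite sign, reading 4694, 4586, 4589, 4900 and 5227 against 4031 to 4715 with a median of 4345, at 0.14 ± 0.05 (adjusted p = 0.0678).

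The other 13 cytosolic genes had estimates from -0.09 for Farsa to 0.16 for Eprs, and the other 9 mitochondrial genes from -0.12 for Cars2 to 0.15 for Wars2, with none past the threshold. Their 95% intervals together reached from -0.27 to 0.36, which leaves a change of 1.5-fold outside all of them. Of the 8 enzymes of the multisynthetase complex 1 passed (Mars1), and of the 12 other cytosolic enzymes 0 passed, with median log2 fold changes of -0.03 in both sets. Eprs, the bifunctional glutamyl-prolyl enzyme of the complex, read 14767 to 18363 against 13396 to 18201 in Ctrl. By structural class, 1 of 10 cytosolic class I and 0 of 10 class II genes passed, as did 4 of 9 mitochondrial class I genes (Lars2, Iars2, Yars2, Vars2) and 1 of 7 class II genes (Tars2). The 5 cytosolic genes whose promoters held TGATGNAA had log2 fold changes of 0.04 for Aars, -0.08 for Gars, 0.01 for Iars, -0.24 for Tars and 0.12 for Yars, with 0 of 5 past the threshold.

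The cytosolic estimates moved with 2 Ctrl libraries. Ctrl replicates 1 and 2 were the 2 highest Ctrl libraries for 16 of 20 cytosolic genes, for 2 of 16 mitochondrial genes and for 16.8% of the 12274 genes. For Nars these replicates read 15654 and 14983 against 9981 to 11637 in Ctrl replicates 3 to 6, a ratio of means of 1.41, and Tars had the same ratio of 1.41, whereas Dars had a ratio of 1.04. β-Mfn1KO replicate 1 was likewise the highest of its group for 16 of 20 cytosolic genes (24.3% of the 12274 genes), with Rars at 4944 against 3565 to 3926 in the other 3. All 3 libraries came from female mice, with a mean log2 CPM over the cytosolic genes of 7.20 to 7.24. Their groups' other female libraries were lower, at 6.93 in Ctrl replicate 3 and at 7.10 and 7.07 in β-Mfn1KO replicates 2 and 3. The male libraries of these groups lay lower too, from 6.89 in Ctrl replicate 6 to 7.05 in β-Mfn1KO replicate 4. Whether sex set the 3 libraries apart was not tested. With Ctrl replicates 1 and 2 left out, a choice made after their values were seen, 2 cytosolic genes passed in β-Mfn1/2DKO, Eprs at 0.29 (adjusted p = 0.0129) and Vars at 0.18 (adjusted p = 0.0272), both higher, and Mars1 did not. Of the mitochondrial genes Lars2 at -0.78, Iars2 at -0.17 and Yars2 at 0.29 then passed. Over all 28632 genes 3519 passed in that fit, 2074 higher and 1445 lower.

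**Figure D3:**
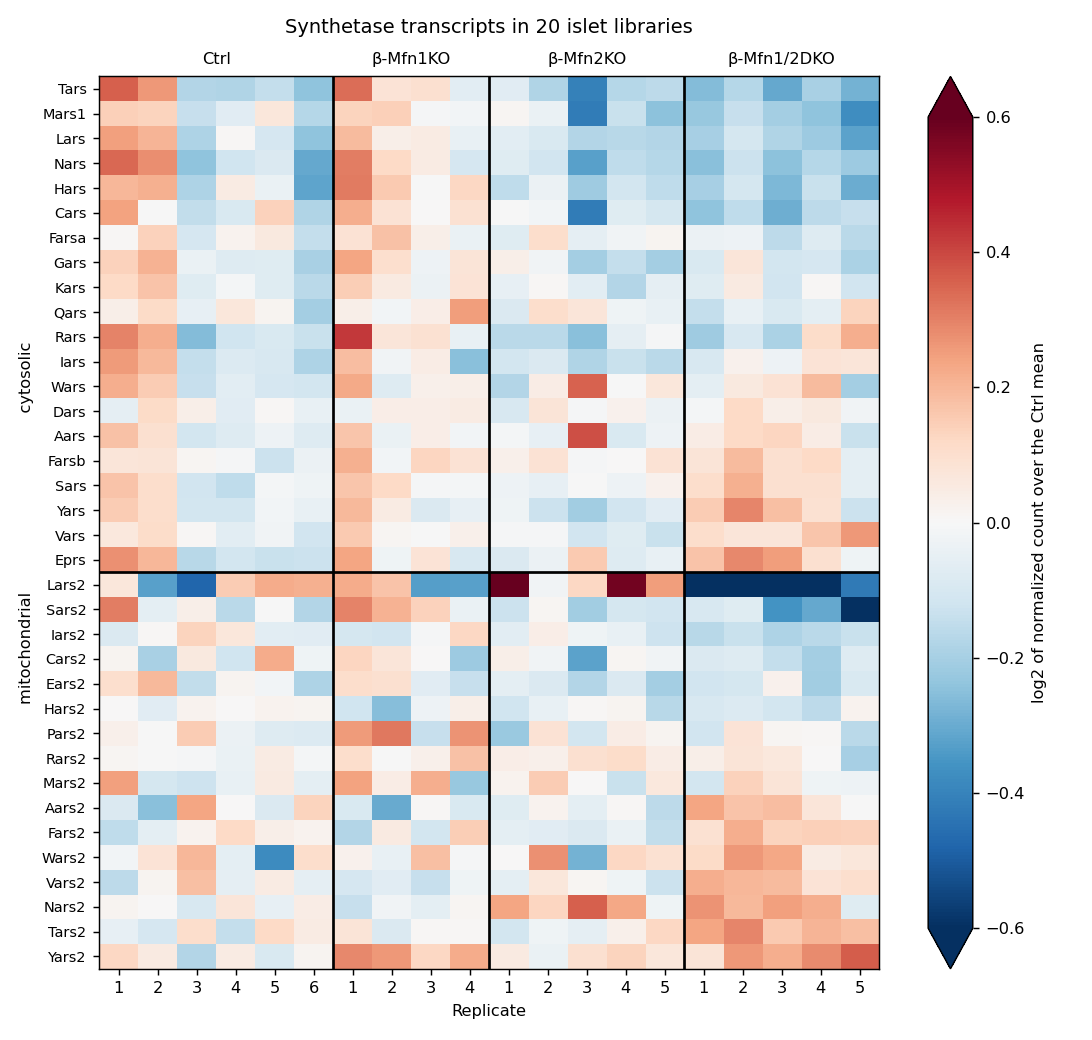
Each of 36 synthetase transcripts (rows, cytosolic above and mitochondrial below the line, ordered by fold change) in each of 20 libraries (columns, by replicate), as log2 of the normalized count over the Ctrl mean, with colours saturating at 0.6. Ctrl replicates 1 and 2 and β-Mfn1KO replicate 1 are red across most cytosolic rows, and Lars2 is blue throughout β-Mfn1/2DKO.

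The same 3 libraries were high for genes of the amino acid response. Of 16 listed genes of that response, 13 had Ctrl replicates 1 and 2 as their 2 highest Ctrl libraries and 15 had β-Mfn1KO replicate 1 as their highest β-Mfn1KO library. Asns, asparagine synthetase, read 9862 and 9356 in Ctrl replicates 1 and 2 against 7269 to 8452 in the other 4, and Psat1 of serine synthesis read 4896 and 3788 against 2194 to 2809. Cytosolic synthetases were high in the same libraries where Asns and Psat1 were high, in Ctrl islets as in β-Mfn1KO islets. What set these libraries apart was not tested.

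In β-Mfn1/2DKO against Ctrl islets several amino acid response genes rose. Of the 4 response genes with TGATGNAA in their promoter windows, Trib3 and Nupr1 rose, while Asns and Chac1 did not pass. The 5 synthetases with those letters did not pass either. Nupr1 varied widely, reading 15380 to 135773 in β-Mfn1/2DKO (median 19880), 2462 to 7998 in Ctrl and 2189 to 27560 in β-Mfn2KO. Of the 16 genes, 7 rose (Sesn2, Trib3, Ddit3, Slc3a2, Nupr1, Cebpg, Slc7a5) and 1 fell (Shmt2), with a median log2 fold change of 0.23, beside 16.5% called over all genes and 33.6% over the 12274 genes. Sesn2, a stress-induced inhibitor of mTORC1, read 12079, 12113, 12654, 11939 and 10499 against 6063 to 7184 in Ctrl, and rose by 0.86 ± 0.08 (adjusted p = 9.08e-08). Trib3, a pseudokinase induced by ATF4, read 11620, 13334, 11855, 10871 and 7922 against 1799 to 4591, and rose by 1.94 ± 0.23 (adjusted p = 2.86e-06). Ddit3, which encodes CHOP, read 9601, 13040, 10719, 8497 and 6243 against 1628 to 3297, and rose by 1.95 ± 0.29 (adjusted p = 4.22e-05). The groups did not overlap for any of these 3 genes, as was the case for 20.6% of the 12274 genes. Asns read 6731, 7377, 6631, 7364 and 6972, at -0.27 (adjusted p = 0.056), and Atf4 itself was at 0.07 (adjusted p = 0.674). With β-Mfn1/2DKO replicates 4 and 5 left out 8 of the 16 passed, and with Ctrl replicates 1 and 2 left out 7 passed. With depth class as a covariate 4 passed (Ddit3, Sesn2, Slc3a2 and Trib3, all higher), and with total-count scaling 10 passed. This list was drawn up with results of these data known, so its count is no independent evidence of a direction.

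**Figure D4:**
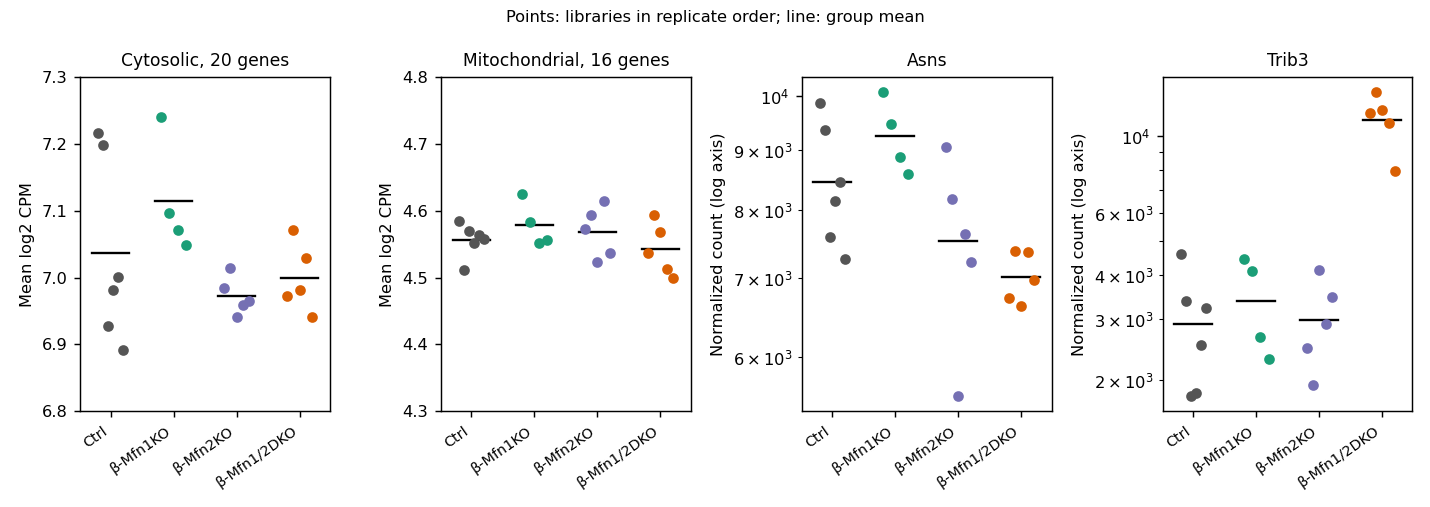
Mean log2 CPM of the 20 cytosolic and of the 16 mitochondrial synthetases, and normalized counts of Asns and Trib3 on log axes, in each library by genotype, with lines at group means. The 5 β-Mfn1/2DKO libraries lie above all others for Trib3, from 7922 to 13334, and within the Ctrl range for the cytosolic mean, from 6.94 to 7.07.

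Averaged over genes, both sets of enzymes in each knockout overlapped the Ctrl libraries. The mean log2 CPM of the cytosolic genes was 7.04 ± 0.14 in Ctrl (SD, n = 6), 7.11 ± 0.09 in β-Mfn1KO (n = 4), 6.97 ± 0.03 in β-Mfn2KO (n = 5), and lay from 6.94 to 7.07 in the 5 β-Mfn1/2DKO libraries. That of the mitochondrial genes was 4.56 ± 0.02, 4.58 ± 0.03, 4.57 ± 0.04 and 4.54 ± 0.04 in the same order of genotypes. The cytosolic minus the mitochondrial mean was 2.48 ± 0.15 in Ctrl, 2.54 ± 0.05 in β-Mfn1KO, 2.40 ± 0.03 in β-Mfn2KO and 2.46 ± 0.04 in β-Mfn1/2DKO, and the β-Mfn1/2DKO libraries, from 2.41 to 2.52, lay within the Ctrl range of 2.33 to 2.69. With Lars2 left out, the mitochondrial mean was 4.23 ± 0.03, 4.26 ± 0.02, 4.22 ± 0.04 and 4.27 ± 0.05 in the same order of genotypes. The cytosolic mean minus this one was 2.80 ± 0.14, 2.85 ± 0.07, 2.75 ± 0.03 and 2.73 ± 0.04. These averages were described without a test.

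No synthetase passed the threshold in islets that lacked a single Mitofusin. In β-Mfn2KO against Ctrl islets 0 of 36 passed in edgeR's test, 3 had an unadjusted p under 0.05 (Nars2, Lars2 and Mars1), and over all genes 0.0559% were called. Nars2 read 1190, 1103, 1295, 1185 and 992 in β-Mfn2KO, at 0.19 ± 0.07, with 4 of 5 libraries above every Ctrl library. Lars2 read 45078, 27838, 30764, 42259 and 33617 in β-Mfn2KO, at 0.35 ± 0.15, which is the opposite sign to β-Mfn1/2DKO (both adjusted p = 0.925). In β-Mfn1KO against Ctrl islets 0 of 36 passed, 1 had an unadjusted p under 0.05 (Yars2), and 0.0279% of all genes were called. Yars2 read 720, 707, 643 and 687 in β-Mfn1KO, each above every Ctrl library before rounding, at 0.22 ± 0.07 (adjusted p = 0.53), and in this comparison 1.47% of the 12274 genes had libraries that did not overlap. Across the single knockouts the 95% intervals of the 36 genes reached from -0.40 to 0.65, the upper end being that of Lars2 in β-Mfn2KO. DESeq2 also called 0 of 36 synthetases in both single knockouts.

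β-Mfn2KO replicate 3 was the lowest of its group for 10 of the 20 cytosolic genes and for 22.0% of the 12274 genes. It was the highest for 3 (Aars, Eprs and Wars) and for 23.2% of the 12274 genes. Aars, the alanyl enzyme, read 20928 there against 15051 to 15880 in the other 4 β-Mfn2KO libraries, and Wars read 8046 against 5580 to 6604. Cars read 3311 against 4115 to 4415. Ddit3 read 8127 there against 2138 to 3504, while Psat1 read 1443 against 2570 to 3179 and Chac1 1438 against 2457 to 3546. In this library some ATF4 targets and synthetases were thus high while others were low.

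Set against β-Mfn2KO islets, β-Mfn1/2DKO islets differed in 6 of 36 synthetases, 5 higher and 1 lower, beside 7.09% of all genes higher and 5.9% lower and 26.6% in either direction of the 12274 genes. Lars2 fell by 1.07 on the log2 scale (SE 0.16, adjusted p = 6.11e-05), with every β-Mfn1/2DKO library below every β-Mfn2KO library. Fars2, the mitochondrial phenylalanyl enzyme, read 986, 1076, 1016, 1024 and 1019 against 889, 885, 872, 900 and 837, and rose by 0.23 ± 0.06 (adjusted p = 0.014). It shares 115 exon bases with Lyrm4 on the opposite strand, a gene with 65.5% of its count. Tars2 rose by 0.22 ± 0.06 (adjusted p = 0.0143) and Vars2 by 0.18 ± 0.06 (adjusted p = 0.0311), and these 3 also had no overlap between the groups, as was the case for 23.5% of the 12274 genes. Of the cytosolic genes Vars rose by 0.20 ± 0.05 (adjusted p = 0.011) and Yars by 0.23 ± 0.07 (adjusted p = 0.037). Vars read 4586 to 5227 against 3983 to 4340, without overlap, and Yars overlapped through β-Mfn1/2DKO replicate 5 at 5687. With β-Mfn1/2DKO replicates 4 and 5 left out Vars no longer passed (adjusted p = 0.065) and Yars did (0.34, adjusted p = 0.00322).

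Set against β-Mfn1KO islets, 11 of 36 synthetases passed, beside 17.4% of all genes (9.67% higher and 7.69% lower) and 35.1% of the 12274 genes. The 5 cytosolic genes among them were all lower. These were Hars at -0.35, Mars1 at -0.30, Cars at -0.30, Tars at -0.36 and Lars at -0.26 (adjusted p from 0.00566 to 0.0298). For each of the 5, and for Nars, every β-Mfn1/2DKO library lay below every β-Mfn1KO library, in a comparison where 32.0% of the 12274 genes did not overlap. Hars read 2819, 2527, 2262 and 2473 in β-Mfn1KO, against 1847 to 2109 in β-Mfn1/2DKO. It shares 195 exon bases with Hars2 on the opposite strand. Of the mitochondrial genes Vars2 (0.24), Tars2 (0.21), Nars2 (0.23) and Aars2 (0.25) were higher, and Lars2 (-0.68) and Sars2 (-0.44) were lower (adjusted p from 0.00471 to 0.0491). With β-Mfn1/2DKO replicates 4 and 5 left out, 2 of the 5 cytosolic calls were kept, Cars and Hars.

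Lars2 was the only synthetase that passed a test of whether the effect of Mfn1 loss differs with Mfn2. The interaction, β-Mfn1/2DKO over β-Mfn2KO less β-Mfn1KO over Ctrl, was -1.03 ± 0.22 on the log2 scale (adjusted p = 0.00623), the first contrast being -1.07 and the second -0.04. Over all genes 5.92% passed this test, and 1 of 36 synthetases did. The next in order were Vars2 at 0.27 (adjusted p = 0.0563), Fars2 at 0.24 (adjusted p = 0.124) and Aars2 at 0.30 (adjusted p = 0.154).

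Lars2 moved together with several noncoding RNAs and with protein-coding genes, which were looked up after its values were seen. The genes most like Lars2 in log2 CPM over the 20 libraries were Gm19461, annotated as an antisense RNA (Pearson's r = 0.86), Rn7s1, an RNA of the signal recognition particle (0.86), and mt-Rnr1, the small ribosomal RNA of mitochondria (0.82). Next came the protein-coding genes Glt1d1 (0.81), Pcf11 (0.81), Zfp839 (0.80) and Nceh1 (0.80). The RNAs mt-Rnr2 and AY036118, described below, were not among the 10 genes most like Lars2. These values are a description over 20 libraries that share genotype groups and depth. In β-Mfn1/2DKO mt-Rnr1 read 2340 to 3546 against 4814 to 5940 in Ctrl (-0.95, adjusted p = 2.98e-06), and mt-Rnr2, the large one, 6196 to 13844 against 16762 to 26994 (-1.26, adjusted p = 4.38e-05). Rn7s1 read 1068 to 1481 against 1620 to 4866 (-1.29, adjusted p = 0.0107). AY036118, annotated as a long noncoding RNA, read 0, 5502, 3341, 9154 and 11773 in β-Mfn1/2DKO replicates 1 to 5 and from 2001 to 65008 in Ctrl. Ctrl replicate 2, which held 2001 of AY036118 and 1620 of Rn7s1, also had a low Lars2 count of 22517. Ctrl replicate 3, the lowest of its group for Lars2 at 20346, held 42689 of AY036118 and 1757 of Rn7s1. Within the transcripts of Lars2 none of 11292 stretches of 75 bases was shared exactly with another gene annotated in GENCODE M21. Near matches and sequence outside that annotation were not searched, so reads from such sequence could not be detected this way. The part that these RNAs play in the Lars2 count was not tested.

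**Figure D5:**
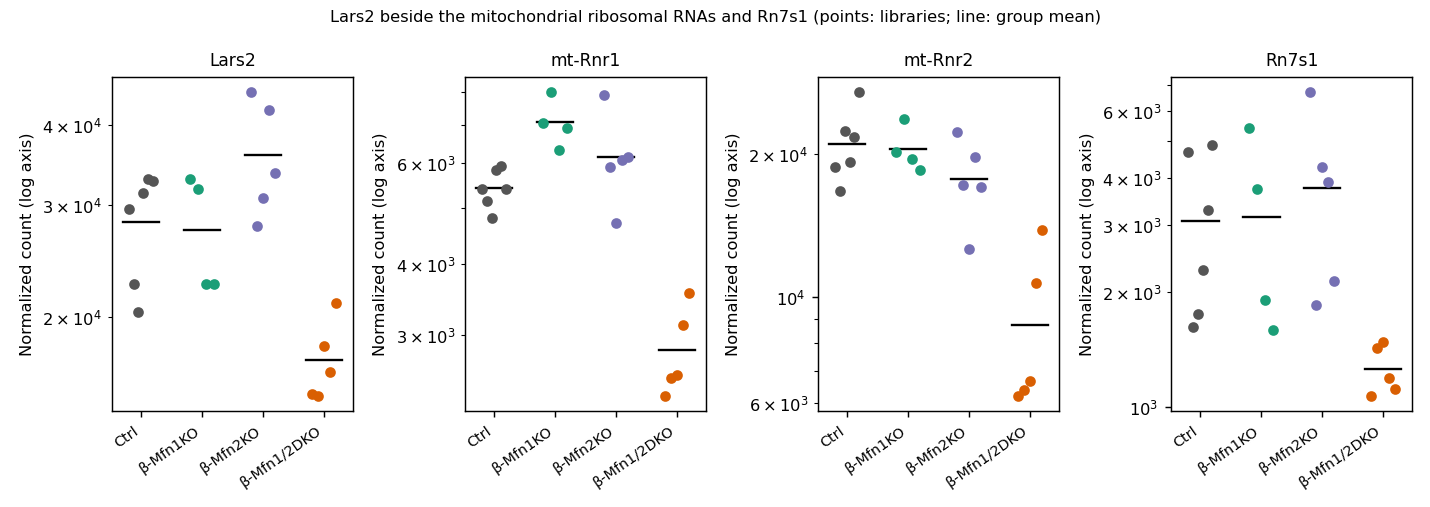
Normalized counts of Lars2, of the mitochondrial ribosomal RNAs mt-Rnr1 and mt-Rnr2 and of Rn7s1 in each library on log axes, points in replicate order and lines at group means. Group means are lowest in β-Mfn1/2DKO in every panel. Its libraries lie below all Ctrl libraries except for Lars2, where replicate 5 at 21060 exceeds Ctrl replicate 3 at 20346.

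Depth went with genotype. Total counts ranged from 12400687 to 20329064 in Ctrl, from 15745680 to 16685381 in β-Mfn1KO and from 65533388 to 122947313 in β-Mfn1/2DKO. In β-Mfn2KO they were 15110046 to 18919122 in replicates 1 to 3, and 55962873 and 59533407 in replicates 4 and 5. Every β-Mfn1/2DKO library was thus deeper than every Ctrl library and every β-Mfn1KO library. Depth and genotype therefore cannot be told apart in β-Mfn1/2DKO against Ctrl or against β-Mfn1KO. The interaction draws on these groups as well. In a comparison of libraries above 40000000 counts, also chosen after the data were seen, the 5 β-Mfn1/2DKO libraries against β-Mfn2KO replicates 4 and 5, Lars2 was at -1.10 (adjusted p = 0.00368), Vars at 0.29 (adjusted p = 0.0367), Fars2 at 0.29 (adjusted p = 0.0326) and Vars2 at 0.28 (adjusted p = 0.0374), and these 4 passed. Over all genes 1805 of 28632 passed in that comparison, 1221 higher and 584 lower. With depth class as a covariate 0 of 36 passed against Ctrl and 728 genes in all.

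Scaling shifted the frame for small changes. Scaling by total counts raised the median log2 fold change of the 12274 genes in β-Mfn1/2DKO over Ctrl by 0.14. Under it 5393 of 28632 genes passed as higher and 949 as lower. Of all genes called under it 85.0% were thus higher, against 58.3% in the main analysis and 49.1% with DESeq2 size factors. Under total-count scaling 6 cytosolic genes passed as higher and none as lower (Dars, Eprs, Farsb, Sars, Vars and Yars), while Lars2 stayed lower at -0.59, and Mars1 at -0.09 and Iars2 at -0.02 no longer passed. Of the 5 cytosolic genes lower than in β-Mfn1KO islets, none passed under that scaling.

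Targeted genes and markers of other cells were as follows. The log2 fold change of Mfn1 was -1.31 in β-Mfn1KO and -1.07 in β-Mfn1/2DKO. That of Mfn2 was -1.15 in β-Mfn2KO and -0.75 in β-Mfn1/2DKO, and no library of these overlapped the Ctrl range. All 8 β-cell markers, insulin genes included, fell in β-Mfn1/2DKO, their summed level being 63675 to 86621 CPM against 144155 to 231776 in Ctrl. The 16 acinar markers summed to 17917 and 46993 CPM in β-Mfn1/2DKO replicates 4 and 5, against 511 to 853 in replicates 1 to 3 and 364 to 2093 in Ctrl. In these 2 libraries Rars read 3977 and 4286 against 3173 to 3439 in the other 3, and Eprs read 16113 and 14767 against 16976 to 18363. The 4 endothelial markers summed to 146 to 239 CPM in β-Mfn1/2DKO and 98.2 to 148 CPM in Ctrl, with none of these markers at 0. The 4 ductal markers summed to 805 to 1001 CPM in β-Mfn1/2DKO and 602 to 810 CPM in Ctrl, and 2 of them passed as higher. The 3 hormone genes of other endocrine cells summed to 35077 to 57300 CPM against 22166 to 56482, the 4 stromal markers to 46.0 to 89.9 CPM against 17.2 to 297, and the 4 macrophage markers to 16.9 to 30.2 CPM against 18.0 to 62.9. With the acinar score as a covariate 0 cytosolic and 5 mitochondrial synthetases passed against Ctrl, and the part of the other cell types in the synthetase results was not tested.

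Scaffolds, amidotransferase subunits and editing or maturation enzymes form a list of 20 further genes of transfer RNA charging. Of these 7 passed in β-Mfn1/2DKO against Ctrl, 5 higher and 2 lower, with a median log2 fold change of 0.14, and 0 passed in β-Mfn2KO or in β-Mfn1KO. These 7 lay near the 33.6% called among the 12274 genes, of which 20.6% did not overlap between the groups. Gatb, a subunit of the GatCAB amidotransferase, read 623, 717, 711, 707 and 618 against 387 to 562 in Ctrl, without overlap, and rose by 0.46 ± 0.08 (adjusted p = 0.000255). Its partner Gatc rose by 0.30 ± 0.08 (adjusted p = 0.00856), whereas Ears2, the enzyme upstream of them, was at -0.10 (adjusted p = 0.389). Aimp1, a scaffold of the multisynthetase complex, read 2663, 2994, 2756, 2695 and 2603 against 2048 to 2528, without overlap, and rose by 0.32 ± 0.06 (adjusted p = 0.000587). The other scaffolds were at 0.28 for Eef1e1 (adjusted p = 0.0580) and 0.08 for Aimp2 (adjusted p = 0.538). Prorsd1 read 804, 915, 805, 841 and 748 against 1046 to 1345, without overlap, and fell by 0.48 on the log2 scale (SE 0.09, adjusted p = 0.000493). Aarsd1, which edits mischarged alanyl transfer RNA, rose by 0.31 (adjusted p = 0.00319), Sephs2 of selenophosphate synthesis rose by 0.14 (adjusted p = 0.0337), and Sepsecs, which completes selenocysteine on its transfer RNA, fell by 0.34 (adjusted p = 0.00694). With total-count scaling 13 of these 20 passed against Ctrl, with depth class as a covariate 0, and with β-Mfn1/2DKO replicates 4 and 5 left out 7 passed.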

How the data were processed

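RNAseq was performed on whole islets, 1 library per sample. The authors aligned paired-end reads to GRCm38 with STAR 2.6.1b, estimated counts per gene with RSEM 1.3.1 and removed genes at 0 in all samples. The deposited expected counts are whole numbers and were used as deposited, rounding changing nothing. The authors also deposited a depth-normalized signal made with DESeq2, used here only in an alternative with a pseudocount of 1. The strand setting of counting is not given in the sources used here.

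Ensembl IDs were matched to symbols with GENCODE M21, and 28579 of 28632 genes had one. The 36 genes and all lists were chosen with earlier results of these data known. Counts were scaled by TMM and tested over all 28632 genes with edgeR 4.0.16 (quasi-likelihood, 1 coefficient per group, all 20 libraries, Benjamini-Hochberg adjustment, threshold 0.05), in R 4.3.3. The interaction is a contrast of the same model. Promoter windows came from RefSeq (GRCm38.p6), and 1 of the 4 sets of letters searched in them is not reported here. The script that fits the models was tested on simulated counts modelled on the Ctrl and β-Mfn1/2DKO libraries. It recovered 65 of 100 genes changed 1.5-fold and 91 of 100 changed 2-fold, and 22 of its 178 calls were unchanged genes. Total counts of 12400687 to 122947313 per library set the precision of each value. Replicate libraries are labelled as separate samples, and p-values measure the spread between them.

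By rule, values by library are given for the 7 cytosolic and 7 mitochondrial genes of smallest p in β-Mfn1/2DKO against Ctrl and for members lower there, and in the 2 lists the 3 genes of smallest p and the scaffold proteins are named. Other genes with values, such as Aars, Eprs, Rars, Wars, Fars2, Asns, Psat1 and the RNAs beside Lars2, were picked after their values were seen. Alternatives were DESeq2 1.42.0, limma 3.58.1 on the authors' signal, other scalings, a low-count filter (filterByExpr), covariates for sex, acinar score, depth class and replicate number, and subsets of libraries.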

Additional observations from a re-analysis of the deposited data

Results flagged for a closer look

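Dixon's test singled out 1 library in 9 of 144 groups of synthetase values, where chance alone gives 7.2 at 1 in 20. In β-Mfn2KO replicate 3 the normalized count of Aars was 20928 and that of Eprs 16790, both above the other 4 libraries, while Cars at 3311 and Cars2 at 802 were below them. In β-Mfn1/2DKO replicate 5, the library with the highest acinar marker sum, Nars2 at 960 and Rars2 at 1206 were below the other 4. In β-Mfn1KO, Dars was low in replicate 1 at 3249 and Pars2 low in replicate 3 at 248. In Ctrl, Hars2 was low in replicate 2 at 1244.

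The effect of Mfn1 loss on Lars2 differed between islets with and without Mfn2, the interaction being -1.03 on the log2 scale (edgeR quasi-likelihood test, adjusted p = 0.00623).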

How the results depend on the processing

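The calls on Lars2 against Ctrl held under every alternative except depth class as a covariate (-0.86, adjusted p = 0.0973), and leaving out single libraries gave -0.81 to -0.65. Counts of small changes moved with the settings, and the cause was not tested.

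Of the cytosolic genes 1 passed in β-Mfn1/2DKO against Ctrl. The number was 4 with DESeq2 size factors, 6 with total-count scaling, 5 with filterByExpr or DESeq2, 2 with limma on the authors' signal or without Ctrl replicates 1 and 2, and 0 with an acinar or depth covariate or a 1.5-fold minimum. Leaving out single libraries gave 0 to 5, with 0 without Ctrl replicate 1 or 5 or β-Mfn1/2DKO replicate 4 or 5, 2 without β-Mfn2KO replicate 3 or 5 or β-Mfn1/2DKO replicate 2, 3 without Ctrl replicate 3 and 5 without Ctrl replicate 6. Of the mitochondrial genes 5 passed, against 3 with only the groups compared or without Ctrl replicates 1 and 2, 1 with a 1.5-fold minimum and 0 with the depth covariate. Single libraries gave 3 to 6, with 3 without Ctrl replicate 2 or 4 or β-Mfn1/2DKO replicate 1. Vars2 reversed to -0.0070 (adjusted p = 0.991) with limma on the authors' signal.

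Against β-Mfn2KO the cytosolic number was 2, and 5 with total-count scaling, 1 with DESeq2 size factors, the depth covariate, libraries above 40000000 counts or without β-Mfn1/2DKO replicates 4 and 5, and 0 with limma or a 1.5-fold minimum. It was 1 to 2 over single libraries, with 1 without β-Mfn2KO replicate 2, 3 or 4 or β-Mfn1/2DKO replicate 2. The mitochondrial number was 4, and 1 with the depth covariate or a 1.5-fold minimum, and 3 to 5 over single libraries. Against β-Mfn1KO the cytosolic number was 5, and 8 with DESeq2, 3 (all higher) with total-count scaling, 2 with the acinar covariate or without β-Mfn1/2DKO replicates 4 and 5, and 0 with the depth covariate or a 1.5-fold minimum. It was 2 to 7 over single libraries, with 2 without β-Mfn1KO replicate 1 or β-Mfn1/2DKO replicate 1 or 3. The mitochondrial number was 6, and 3 with limma, 1 with a 1.5-fold minimum, 0 with the depth covariate, and 3 to 6 over single libraries, with 3 without β-Mfn1KO replicate 2. In the interaction 0 cytosolic genes passed, 1 with total-count scaling and 2 (Hars and Tars) without Ctrl replicates 1 and 2, with 0 over single libraries. Of the mitochondrial genes 1 passed, 4 with total-count scaling, 3 without Ctrl replicates 1 and 2, 2 with filterByExpr, the acinar covariate, DESeq2 or without β-Mfn1/2DKO replicates 4 and 5, and 1 to 2 over single libraries, with 2 without Ctrl replicate 1, β-Mfn1KO replicate 4, β-Mfn2KO replicate 3 or β-Mfn1/2DKO replicate 4.

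The median log2 fold change of the mitochondrial genes, 0.01, was -0.025 with DESeq2 size factors, -0.023 with DESeq2, 0.15 with total-count scaling, 0.033 with the acinar covariate and 0.071 without β-Mfn1/2DKO replicates 4 and 5, and -0.0046 to 0.040 over single libraries. That of the cytosolic genes was -0.06 to 0.03 over single libraries. All genes called against Ctrl numbered 4710, and 5798 with DESeq2, 6342 with total-count scaling and 728 with the depth covariate.

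Same-numbered libraries tended to deviate together, with r over 0.1 in 21 of 27 pairs (mean 0.232, lowest -0.114) against 35 of 122 pairs of other numbers (mean -0.051). Among libraries of the same sex the means were 0.270 and 0.164. No source says what a number shares and not every pair exceeded 0.1, so the numbers were not taken as a pairing. With the replicate block 6 cytosolic genes passed against Ctrl, all lower, and 4950 genes in all. The lower depth of every Ctrl library limits the contrast with islets that lacked both Mitofusins. Libraries that lacked a single Mitofusin were not all deeper than the Ctrl libraries.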
